A study of Caenorhabditis elegans with 2 samples.

Results

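The spliced leader (SL) RNA genes were examined in chromatin recovered with PES-1, a forkhead transcription factor, in early embryos of Caenorhabditis elegans. They were taken as the genes of biotype snRNA in the Ensembl annotation (assembly WBcel235, the ce11 assembly) whose symbols start with sls-1. or sls-2. This gave 30 of 46890 nuclear genes, 12 of them for SL1 RNA and 18 for SL2 RNA. The rule uses names and no measured value, although it was written with earlier results of these data known.

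SL RNAs are short RNAs made by RNA polymerase II that donate their capped 5' end to other transcripts in trans-splicing. SL1 is the usual leader of the first or only gene of a transcription unit, and SL2 is placed mainly on downstream genes of operons, where it separates the mRNAs of a polycistronic transcript. SL genes have promoters of the snRNA kind, with a proximal sequence element upstream of the start that is bound by the snRNA activating complex. SL1 genes stand in a tandem repeat together with the 5S ribosomal RNA genes, whereas SL2 genes are dispersed.

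The data were chromatin immunoprecipitation with sequencing from 1 group of 2 biological replicates of strain RW12239, whose pes-1 gene on chromosome IV carries the CRISPR insertion st12239 with TY1, EGFP and 3xFLAG tags. Whole early embryos, synchronised by egg bleaching and with a stated age of 1 hour, were used with an antibody against the fluorescent protein. Both replicates carry the tagged allele, and no sample without the tag was analysed here, so the peaks were not set against untagged embryos. The labels name the same control experiment for both replicates. Signal from whole embryos does not tell recovery in few cells from weak recovery in many cells.

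Each deposited list gives peaks with a summit, a signal from the peak caller and an irreproducible discovery rate (IDR). The conservative list holds 1452 peaks at an IDR of 0.01 or less between the replicates, which merge into 1440 distinct summits, and replicate 1 and replicate 2 have lists of 1041 and 1164 peaks of their own. The ranked lists also hold peaks that miss the threshold, and the ranked list between the replicates has 74874 peaks in all. Read depth was not analysed here, and intervals cover the counting of genes only. With 1 group there is no contrast to test, so the counts below are descriptions, read beside the share of all genes.

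The SL RNA genes are shown first, since their sequence decides which of them can be told apart. The leader, taken as the bases from the first GGTTT to the AG before the first GT of an AGGT, is in capitals. It has 22 bases in the full-length SL1 genes, and 21 to 23 bases in the SL2 genes. The first 7 genes shown had a summit in a thresholded list or, for sls-2.3, lie beside one that had. The last pair, sls-2.12 and the SL1 gene, had none.
sls-2.1: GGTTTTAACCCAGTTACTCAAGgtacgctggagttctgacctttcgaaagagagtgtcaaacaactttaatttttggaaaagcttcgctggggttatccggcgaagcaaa
sls-2.2: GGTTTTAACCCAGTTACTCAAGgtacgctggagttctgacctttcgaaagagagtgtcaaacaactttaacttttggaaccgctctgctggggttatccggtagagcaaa
sls-2.3: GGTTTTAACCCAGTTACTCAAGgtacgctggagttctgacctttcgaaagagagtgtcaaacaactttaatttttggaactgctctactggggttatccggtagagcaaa
sls-2.8: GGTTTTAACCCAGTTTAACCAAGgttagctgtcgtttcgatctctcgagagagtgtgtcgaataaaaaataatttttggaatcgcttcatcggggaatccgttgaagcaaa
sls-2.14: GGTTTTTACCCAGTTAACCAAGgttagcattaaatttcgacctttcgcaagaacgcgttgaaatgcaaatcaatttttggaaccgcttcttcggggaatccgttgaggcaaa
sls-2.15: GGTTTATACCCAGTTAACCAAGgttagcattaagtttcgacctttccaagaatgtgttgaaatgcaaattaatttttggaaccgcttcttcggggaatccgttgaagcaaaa
sls-2.18: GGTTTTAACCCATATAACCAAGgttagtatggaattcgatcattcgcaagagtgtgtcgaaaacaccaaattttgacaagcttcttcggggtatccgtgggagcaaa
sls-2.12: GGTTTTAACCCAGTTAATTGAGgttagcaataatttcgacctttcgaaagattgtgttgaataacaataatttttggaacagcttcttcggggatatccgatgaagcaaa
sls-1.10: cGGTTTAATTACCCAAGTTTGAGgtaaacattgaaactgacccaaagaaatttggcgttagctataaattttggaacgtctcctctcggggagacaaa

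These genes, from the RefSeq copy of WBcel235, are sls-2.1 at chrII:5844865-5844974 (plus strand), sls-2.2 at chrII:5543598-5543707 (plus strand), sls-2.3 at chrII:5544164-5544273 (minus strand), sls-2.8 at chrIII:12250465-12250575 (plus strand), sls-2.14 at chrIII:11090412-11090523 (minus strand), sls-2.15 at chrIII:11091010-11091121 (plus strand), sls-2.18 at chrIII:7142291-7142397 (plus strand), sls-2.12 at chrIV:5261913-5262022 (plus strand), and the SL1 copy, identifier WBGene00077487, at chrV:17121670-17121767 (minus strand). The first 3 share 1 leader, which is that of 4 SL2 genes, and the 18 SL2 genes have 11 different leaders in all. After the leader, TTTTGG, the end of the uridine-rich stretch in which Sm proteins bind SL RNAs, was present in all 12 SL1 genes and 17 of the 18 SL2 genes. The exception was sls-2.18. No 2 of the 18 SL2 genes had the same sequence.

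SL2 genes had summits in the conservative list and SL1 genes had none. A summit lay within 200 bp of 7 of the 18 SL2 genes (38.9%, 95% Wilson interval 20.3 to 61.4%), against 3.62% of all nuclear genes and 3.05% of the 23560 nuclear genes up to 200 bp long. These were sls-2.1, sls-2.2, sls-2.4, sls-2.8, sls-2.9, sls-2.14 and sls-2.15, and they had 7 distinct summits, 1 for each gene. Of the 12 SL1 genes, 0 had a summit (Wilson upper bound 24.2%). That bound treats the genes as independent, whereas SL1 genes are repeat copies, so it sets no limit on recovery at them. For both families together the count was 7 of 30 (23.3%, 11.8 to 40.9%), with an interval that counts these copies as independent too.

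Other genes of small RNAs are given for scale. A conservative summit lay within 200 bp of 17 of the 99 other snRNA genes (17.2%, 11.0 to 25.8%), 65 of 346 snoRNA genes (18.8%) and 282 of 612 tRNA genes (46.1%). The interval of the SL2 share overlaps those of all 3 classes, and none of these differences was tested. Sequence uniqueness also differs. Of the words of 50 bases in and within 200 bp of the gene, 0 to 100% were found once in the genome at other snRNA genes (median 84.5%). At SL2 genes the lowest value was 80.04%. The shares are not adjusted for this.

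**Figure D1:**
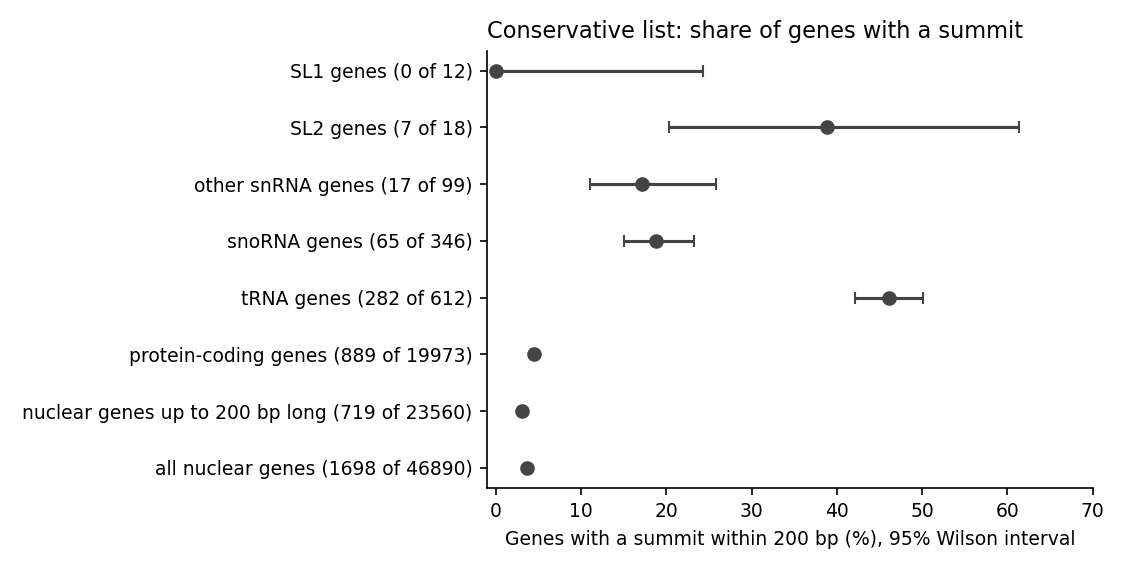
Share of genes with a conservative summit within 200 bp, in percent, for SL genes and other classes of genes; points are shares, bars are 95% Wilson intervals and the counts stand beside each class. SL2 genes, at 38.9%, lie above the 3.62% of all nuclear genes, and SL1 genes are at 0. The SL1 bar treats copies of a repeat as independent genes.

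The strongest SL2 peak, by sls-2.9, was centred in a neighbouring tRNA gene. Its summit in the conservative list lay at -149 bp relative to the sls-2.9 5' end, inside the tRNA gene WBGene00014446, with a signal of 625 and rank 92 of 1452. The signal was 264 in replicate 1 and 359 in replicate 2, with summits at -146 and -149 bp. The peak, at chrI:13297544-13297891, reached the first bases of sls-2.9, which lies at chrI:13297877-13297985. It cannot be told apart from recovery at the tRNA gene, and the count of SL2 genes with a summit is 6 without it.

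The other 6 summits of the conservative list lay inside the SL2 gene itself. At sls-2.4, on chromosome I, the conservative signal was 568 (rank 114), with 254 in replicate 1 and 301 in replicate 2. Its summit lay 96 bp downstream of the first base of the gene, near the gene's 3' end, and at 75 bp in replicate 1. The gene is overlapped on the other strand by the noncoding gene R12E2.18. Such genes also overlap sls-2.2 (C17C3.23), sls-2.3 (C17C3.22) and sls-2.8 (Y75B8A.49), and peaks carry no strand.

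The genes sls-2.1, sls-2.2 and sls-2.3, with identical leaders, lie on chromosome II. The sls-2.1 peak (chrII:5844757-5845042) had a signal of 379 (rank 220), with 146 in replicate 1 and 215 in replicate 2, and its summit lay 28 bp from the 5' end. The sls-2.2 peak (chrII:5543503-5543744) had a signal of 253 (rank 371), with 102 in replicate 1 and 154 in replicate 2, and its summit lay 30 bp from the 5' end. Both were listed in each replicate's own list.

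No thresholded list had a summit by sls-2.3, although it lies 457 bp from sls-2.2 in the opposite orientation and its RNA sequence differs from that of sls-2.2 at 3 of 110 positions (97.3% identity). In the ranked lists of single replicates, the strongest entries within 200 bp of sls-2.3 had signals of 7.70 in replicate 1 and 2.40 in replicate 2. Both were close to the bottom of those lists (13.0% and 0.850% of peaks below). Their summits lay at -100 bp and 224 bp from its 5' end, outside the gene. The 80 bp upstream of sls-2.2 and sls-2.3 were 76.25% identical, against 85% between sls-2.1 and sls-2.2 and 80.2% between sls-2.1 and sls-2.3. Whether these upstream differences relate to the lack of a summit at sls-2.3 was not tested. Of the words of 50 bases in and within 200 bp of the gene, 89.6% were found once in the genome at sls-2.3 and 91.8% at sls-2.2.

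On chromosome III, sls-2.8 and the divergent pair of sls-2.14 and sls-2.15 had weaker peaks. The sls-2.8 peak (chrIII:12250477-12250592) had a signal of 157 (rank 670), with 77.7 in replicate 1 and 91.3 in replicate 2, and it was in both replicates' own lists. The sls-2.14 peak (chrIII:11090353-11090682) had a signal of 116 (rank 1039), with 49.2 and 71.3 in the replicates. The sls-2.15 peak (chrIII:11090921-11091250) had a signal of 89.6 (rank 1352), with 43.3 and 57.4 in the replicates. That peak lies near the lower end of the list, with 6.18% of distinct summits below it.

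The sls-2.14 and sls-2.15 peaks passed the threshold between the replicates but were in neither replicate's own list. Their IDR scores, the IDR rescaled so that 830 is the lowest value in any thresholded list, were 426 and 465 in the ranked list of replicate 1 and 637 and 579 in that of replicate 2. The optimal list, a further thresholded list from both replicates, held sls-2.14 and not sls-2.15. In the ranked list that matches it, the sls-2.15 peak had an IDR score of 820, just short of 830. Both genes are 487 bp apart within the coding gene W09D6.5, outside its exons. All words of 50 bases in and around them were found once in the genome.

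The gene sls-2.18 had peaks in some lists and not in others. It was in the optimal list, which is derived from both replicates, with a signal of 135 and a summit at 72 bp, and in replicate 2's own list with a signal of 87.8. The ranked list of replicate 1 and the ranked list between the replicates had no summit within 200 bp of it. With sls-2.5 and sls-2.16 it lies within the glutamate receptor gene glr-2, outside its exons.

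**Figure D2:**
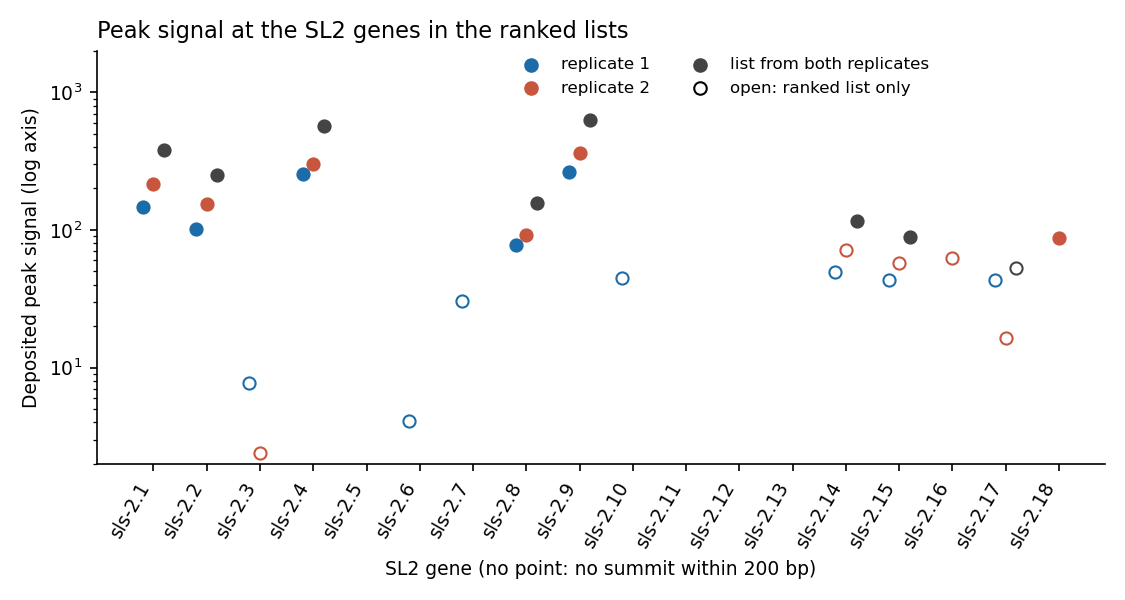
Deposited signal (log axis) of the strongest ranked peak within 200 bp of each SL2 gene in replicate 1, replicate 2 and the list from both replicates; filled points were also in the matching thresholded list and open points were not. The 4 genes with the highest signals, sls-2.9, sls-2.4, sls-2.1 and sls-2.2, are filled in all 3 lists, and sls-2.5, sls-2.11, sls-2.12 and sls-2.13 have no point.

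Replicate 1's own list held 5 of the 18 SL2 genes (all nuclear genes, 2.89%) and replicate 2's own list held 6 (all nuclear genes, 3.02%), and the 5 were in both. The optimal list held 7 (all nuclear genes, 4.17%), of which 6 were also in the conservative list. In the ranked lists the 7 genes with a conservative summit had, from highest to lowest, the order sls-2.9, sls-2.4, sls-2.1, sls-2.2, sls-2.8, sls-2.14 and sls-2.15 in each replicate, but these genes are in that list because their ranks agreed between the replicates. Outside it the replicates differed. In replicate 2, sls-2.18 (87.8) and sls-2.16 (62.1) stood above sls-2.15 and had no entry in replicate 1, and in replicate 1, sls-2.10 (44.7) stood above sls-2.15 and had no entry in replicate 2. The signal at sls-2.17 was 43.0 in replicate 1 and 16.4 in replicate 2. At the 7 genes, replicate 2 signal was higher at 7 of 7, by a median of 0.45 log2 units (range 0.23 to 0.60). Over 1402 conservative summits found in both it was higher by a median of 0.32 with an SD of 0.40. The former takes the strongest ranked peak by the gene and the latter the peak nearest to the conservative summit. The lists state no scaling between replicates, so these ratios describe the deposited values and are not a difference in recovery.

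The 6 conservative summits inside SL2 genes lay from 5 to 96 bp downstream of the first base, and the median over all 7, sls-2.9 included, was 30 bp. The summits of the 2 replicates lay a median of 21 bp apart at these genes, and a median of 20 bp over all 1402 summits. The first value takes the strongest ranked peak within 200 bp of the gene and the second the peak nearest to the conservative summit. The second choice favours small shifts, so the values are not the same measure. The largest shift was 100 bp, at sls-2.15, where replicate 2 and the conservative list placed the summit at 76 bp and replicate 1 at -24 bp, outside the gene. For the 17 other snRNA genes with a summit the median position was 22 bp, with 15 inside the gene. For the 282 tRNA genes it was 20 bp, with 236 inside the gene, and for the 65 snoRNA genes it was -46 bp, with 3 inside the gene. The range of the 6 summits inside SL2 genes takes in the medians of the other snRNA genes and of the tRNA genes, and the differences were not tested.

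**Figure D3:**
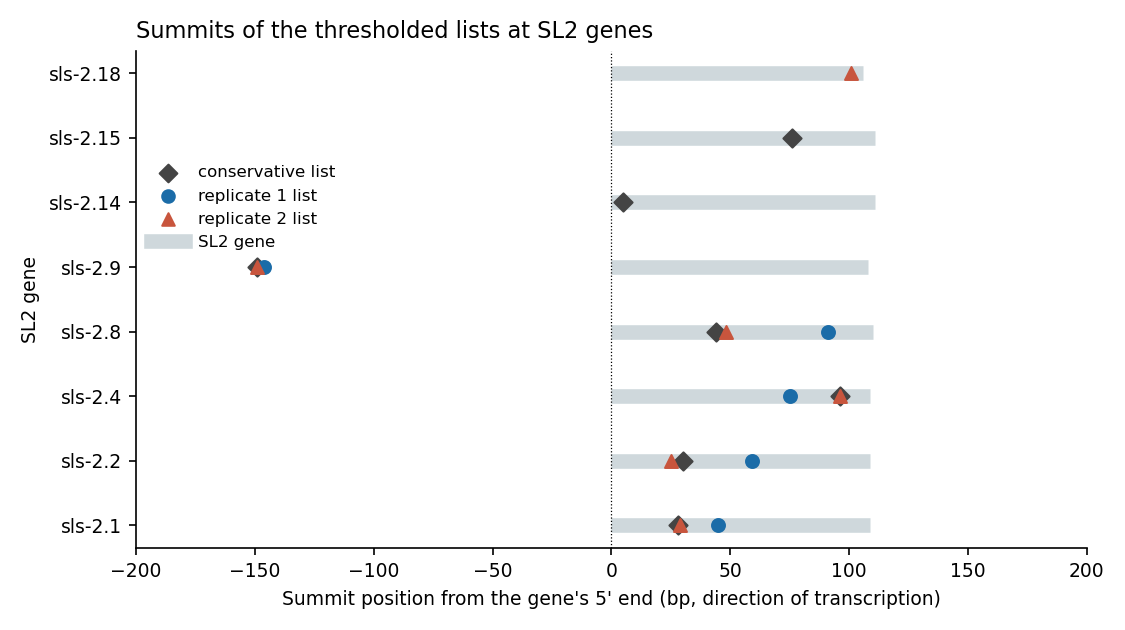
Summit position in bp from the 5' end of the gene, along the direction of transcription, for the 8 SL2 genes with a summit in the conservative list or a replicate's own list; grey bars are the genes and symbols the lists. All summits lie inside the gene except those of sls-2.9, which lie at -149 to -146 bp.

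The remaining 10 SL2 genes had no summit in any thresholded list. Of these, sls-2.5, sls-2.11, sls-2.12 and sls-2.13 had none in any ranked list either. The other 6, sls-2.3, sls-2.6, sls-2.7, sls-2.10, sls-2.16 and sls-2.17, had ranked peaks that missed the threshold. The summits of the strongest ones lay inside the gene only at sls-2.10 and sls-2.17. At sls-2.3, sls-2.6 (268 bp from the 5' end), sls-2.7 (144 bp) and sls-2.16 (161 bp) they lay outside it. The highest signal among the 6 was that by sls-2.16 in replicate 2, at 62.1, with no entry in replicate 1. The nearest to the threshold was sls-2.10 in replicate 1, with a signal of 44.7 and an IDR score of 700, with no entry in replicate 2. Only sls-2.17 of these 6 was in the ranked list between the replicates, with a signal of 52.5 and an IDR score of 71.

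That ranked list held 8 of the 18 SL2 genes (44.4%, 24.6 to 66.3%), where all nuclear genes stood at 35.2% and those up to 200 bp long at 27.0%. The SL2 interval takes in both of these shares. Replicate 1's ranked list held 12 of the 18 (66.7%, 43.7 to 83.7%), beside 46.9% of all nuclear genes and 41.0% of the short ones. Replicate 2's held 11 (61.1%, 38.6 to 79.7%), beside 37.5% and 25.1%. The interval for replicate 1 takes in the share of all genes and not that of short genes. The interval for replicate 2 takes in neither. Both counts include sls-2.9, whose summit lies in a tRNA gene, and genes whose ranked summit lies outside the SL2 gene. No interval was computed without these genes, so the shares do not describe summits inside SL2 genes alone. In the ranked list between the replicates, each of the 7 genes with a conservative summit outranked at least 96.8% of peaks by signal, and the sls-2.17 peak outranked 81.4%.

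The sequence upstream of the SL2 genes is shown next, for the same genes, as the 80 bases before the annotated start. Capitals mark GTCNGNNCAC, in which N is any base. It is the block with the most fixed bases, and at most 2 free positions in a row, that all 7 SL2 genes with a conservative summit share at the same distance from the start.
sls-2.1: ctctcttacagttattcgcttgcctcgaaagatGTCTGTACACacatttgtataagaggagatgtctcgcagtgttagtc
sls-2.2: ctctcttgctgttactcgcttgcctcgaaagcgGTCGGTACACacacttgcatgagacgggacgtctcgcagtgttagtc
sls-2.3: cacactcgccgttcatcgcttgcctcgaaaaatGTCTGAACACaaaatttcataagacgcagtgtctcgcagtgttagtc
sls-2.8: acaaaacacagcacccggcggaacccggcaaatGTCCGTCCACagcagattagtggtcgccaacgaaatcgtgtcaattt
sls-2.14: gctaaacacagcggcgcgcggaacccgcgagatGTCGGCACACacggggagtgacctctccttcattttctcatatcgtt
sls-2.15: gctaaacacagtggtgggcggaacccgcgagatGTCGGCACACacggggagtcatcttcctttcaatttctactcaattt
sls-2.18: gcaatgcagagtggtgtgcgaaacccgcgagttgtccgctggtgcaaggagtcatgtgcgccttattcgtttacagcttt
sls-2.12: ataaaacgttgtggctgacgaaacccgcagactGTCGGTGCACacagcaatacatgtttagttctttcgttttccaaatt
sls-1.10: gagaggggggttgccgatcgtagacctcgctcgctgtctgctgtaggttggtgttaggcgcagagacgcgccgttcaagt

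The pattern was searched on both strands and lay on the sense strand at -47 or -46 bp in 12 of the 18 SL2 genes. By its construction it is in all 7 genes with a conservative summit, among them sls-2.9, whose summit lies in a tRNA gene. It was in 5 of the 11 without, namely sls-2.3, sls-2.10, sls-2.11, sls-2.12 and sls-2.17. It was in 0.320% of the 46882 nuclear genes with a full upstream window of 80 bp and 0.260% of protein-coding genes. The 6 SL2 genes without it are sls-2.5, sls-2.6, sls-2.7, sls-2.13, sls-2.16 and sls-2.18. A shorter word, ACCCGC, also chosen after the sequences were seen and searched on both strands, does not overlap the first and was present upstream of 2 of the 7 genes with a summit and 7 of the 11 without, and in 0.840% of all nuclear genes. No full-length SL1 gene had either in this window.

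SL1 genes could hardly be told apart from each other by sequence. All lie on chromosome V in an array of 13954 bp with 12 5S rRNA genes, with a median spacing of 976 bp between starts (972 to 2550 bp), 11 on the minus strand and 1 on the plus strand. The 10 full-length copies had 1 sequence among them and 2 upstream sequences, and the 2 annotated copies of 68 bp equalled the 3' part of the full ones. The genome carries more copies of this repeat than the assembly shows.

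Of the words of 50 bases in and within 200 bp of an SL1 gene, a median of 0% were found once in the genome, and the highest value was 29.4%, at the plus-strand copy. For words of 100 bases the median was also 0% and the highest 45.6%. At the 18 SL2 genes the lowest value was 80.04% with words of 50 bases, and the median was 99.1% for those with a conservative summit and 93.5% for those without. The sources used here do not give the read length or say whether reads with several matches were kept. No recovery at SL1 genes and no reads assigned to them therefore cannot be told apart.

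**Figure D4:**
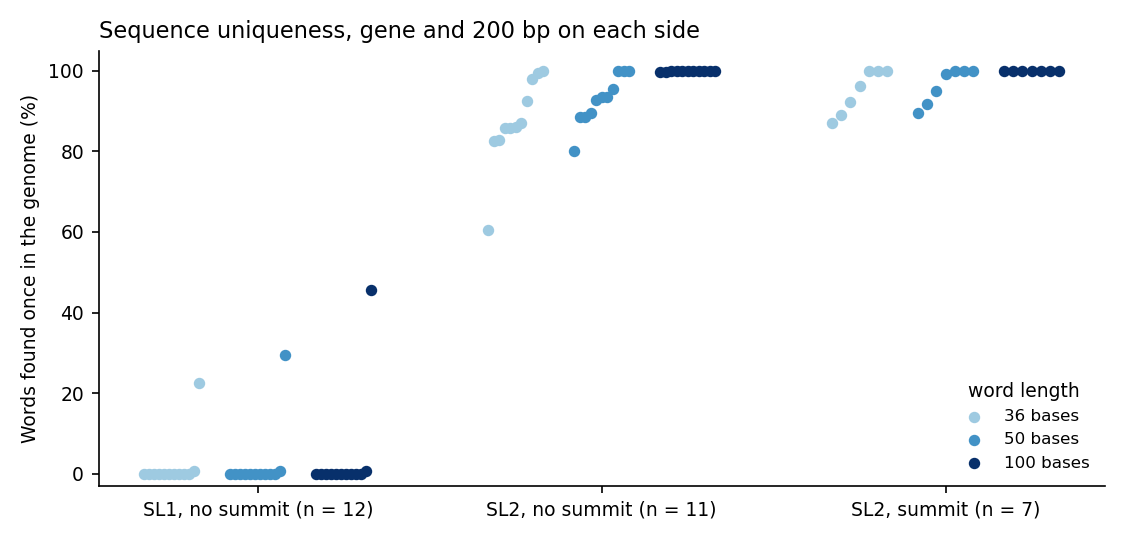
Percentage of words of 36, 50 and 100 bases found once in the genome, over each gene and 200 bp on each side, for SL1 genes and for SL2 genes without and with a conservative summit; each point is 1 gene. All but 1 of the SL1 genes lie below 1%, and with words of 100 bases the SL2 genes lie between 99.8% and 100%.

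No summit of any of the 8 lists lay within 200 bp of an SL1 gene, but ranked peaks lay elsewhere in the array. The thresholded lists had 0 summits in it. The ranked list between the replicates had 4, of which 1 passed an IDR of 0.01. That peak, at chrV:17122103-17122270, had a signal of 462 (rank 202 of 74874), with 290 in replicate 1 and 156 in replicate 2, the order opposite to that at the SL2 genes. Its summit lay 123 bp from the nearest 5S rRNA gene, rrn-4.2 (WBGene00077469), and 418 bp from the nearest SL1 gene.

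More of these peaks passed in single replicates. In replicate 1, 2 of 4 passed, and the second had a summit 17 bp from a 5S rRNA gene and a signal of 68.1. In replicate 2, 4 of 10 passed. Besides the peak above they were one with a signal of 126, whose summit lay 19 bp from a 5S rRNA gene, one of 83.7 and one of 4.55, which stood at rank 70579 by signal. Replicate 1 had no ranked summit within 200 bp of any of these 3. None of these is in the matching thresholded list. In the conservative case 101 of 1553 nuclear ranked peaks past the threshold are left out in this way, and the thresholded lists name 1 more parent file whose content is not stated. No SL2 peak was lost in this step, since the ranked list at the same threshold gave the same 7 genes.

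**Figure D5:**
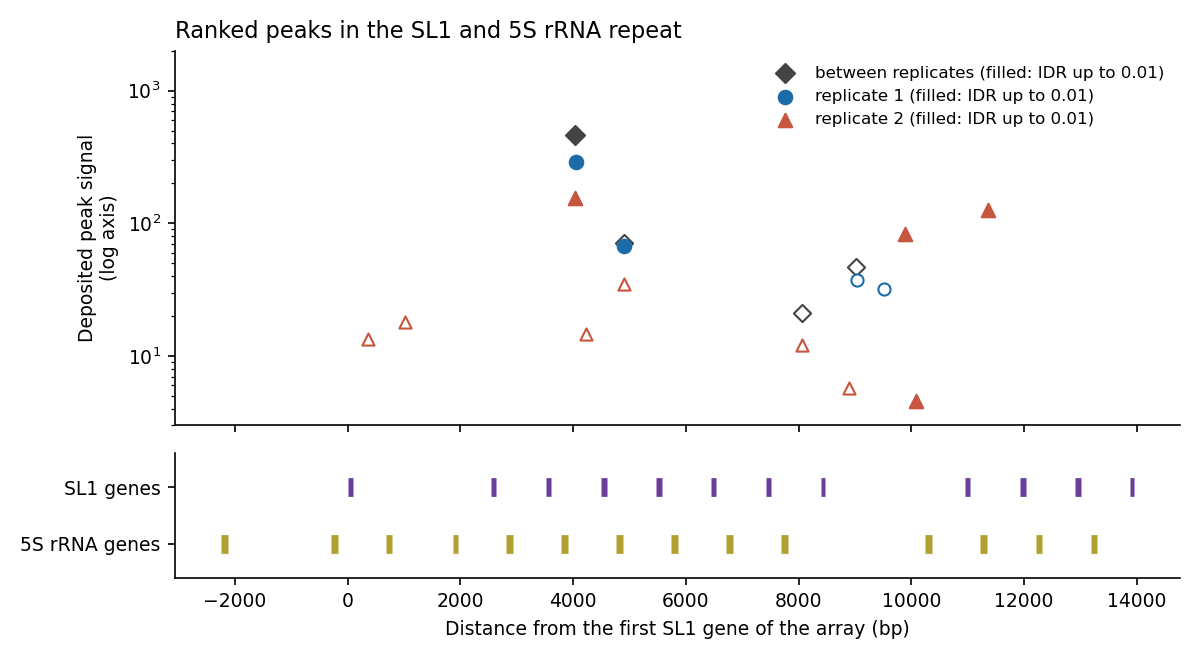
Ranked peaks in the array of SL1 and 5S rRNA genes: deposited signal (log axis) against distance in bp from the first SL1 gene, with filled symbols at an IDR up to 0.01, above a map of both kinds of gene. The strongest peak, with a signal of 462 in the list between the replicates, lies between an SL1 gene and a 5S rRNA gene, and no symbol falls on an SL1 gene.

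Genes for proteins of the SL RNA pathway were examined by their promoters, from 1000 bp upstream to 200 bp downstream of a 5' end. Of the 20 listed, 19 were annotated under these names. A conservative promoter peak was found for 2 of them (10.5%), against 4.09% of protein-coding genes, and this difference was not tested. The share rests on 2 genes. These were snr-1 (signal 436) and snr-2 (188), which encode Sm proteins, the core proteins of SL and spliceosomal ribonucleoproteins. Another Sm gene, snr-4, had a promoter peak in the optimal list and in replicate 2, and the Sm genes snr-3, snr-5, snr-6 and snr-7 had none in any thresholded list. No promoter peak in any thresholded list was found for the other annotated genes of the list. Among them are snpc-4, which encodes a subunit of the snRNA activating complex, and tbp-1, the gene of the TATA-binding protein. The genes sna-1 and sna-2, which encode SL1 ribonucleoprotein components, are also among them.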

How the data were processed

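Peak lists were analysed as deposited. Per the labels, whole embryos were used, sonication gave fragments of 200 to 800 bp and the assembly is ce11. The file notes deposited with the lists name 1 further parent file common to both replicates. The sources used here do not give the aligner, peak caller, their versions or depth. The deposited signal is the authors' peak caller value, ranked within a list, and its ratios between the replicates are given as a description. The deposited score is the IDR rescaled to at most 1000, and the deposited ranked lists give its -log10.

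Mitochondrial peaks were left out. Summits within 200 bp of a stronger one were merged in thresholded lists. A gene was counted when a summit lay within 200 bp of it. Every chromosome of the lists and of Ensembl release 115 ended within the RefSeq WBcel235 sequence. Uniqueness was counted for words of 36, 50 and 100 bases on both strands. Intervals are 95% Wilson intervals (scipy 1.17.1). Identity came from global alignment (biopython 1.88). The assignment was tested on simulated data with 200 summits. Replicate numbers are those of the labels.

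All members were named, and the genes and lists were chosen with earlier results of these data known. The pathway genes were a list, and 1 symbol, snpc-3.3, was not matched. The sequence patterns were chosen after the data were examined. Alternatives were the optimal list, each replicate's list, a stricter IDR, other distances, peak overlap, no merging and the ranked list. Signal tracks were not analysed here.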

Additional observations from a re-analysis of the deposited data

How the results depend on the processing

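The count of 7 SL2 genes ranged from 5 to 7 over the other lists, distances, merging and a stricter IDR of 0.001, and the count of SL1 genes was 0 in each of them. The thresholded lists had 0 summits in the SL1 array, so with these lists the SL1 count repeats that absence and adds no support. At an IDR of 0.001 sls-2.14 and sls-2.15 were lost, and within 100 bp sls-2.9 was. With the ranked list at an IDR of 0.01 and summits within 500 bp, added after the data were seen, 2 SL1 genes had a summit, since the peak 418 bp away then counted. The median summit position was 59 bp in replicate 1's own list and 38.5 bp in replicate 2's, against 30 bp. These lists hold 5 and 6 SL2 genes, not the same 7, so changes of gene and of position cannot be told apart. The median signal at SL genes was 253 in the conservative list, and 146 to 184 with 1 replicate left out, on the scale of the single lists. It was 379 at an IDR of 0.001, 205 within 100 bp and likewise without sls-2.9, and 316 in the ranked list within 500 bp. The number of SL genes in both replicates' own lists was 4 or 5 in all 5 alternatives run. No paired analysis was possible because the series has 1 group and no test. Depth is unknown here, so a gene without a summit is one without a listed peak.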
